A study of Mus musculus with 6 samples.

Results

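The 9 genes described here encode repressors of the circadian clock: the period genes Per1, Per2 and Per3, the cryptochrome Cry2, the REV-ERB nuclear receptors Nr1d1 and Nr1d2, the DEC factors Bhlhe40 and Bhlhe41, and Ciart (CHRONO). They were taken by symbol from the 55536 gene identifiers of the count files, and all 9 passed the filter on low counts. Their levels were compared between fasted livers of CREBH-KO mice (genotype CREBH-K.O in the labels, 3 libraries) and of wild-type (WT) mice (3 libraries). Livers of both genotypes were taken after an overnight fast of 14 h. CREBH, encoded by Creb3l3, is a transcription factor of hepatocytes that is held in the membrane of the endoplasmic reticulum until proteases release it. Strain, age, the making of the knockout and the hour of collection are not given in the labels, so an hour that differed between the genotypes cannot be told apart from genotype.

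The liver clock is a feedback loop. The activators BMAL1 (Arntl) and CLOCK, or NPAS2 in place of CLOCK, bind E-box elements and switch on the period, cryptochrome, REV-ERB, DEC and Ciart genes. PER and CRY proteins, and CIART, then inhibit the activators directly, DEC proteins compete with them for E-boxes, and REV-ERB proteins silence Arntl and Npas2. In liver these transcripts rise and fall over the day, and feeding, fasting, glucocorticoids and body temperature shift their timing.

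Reads counted in genes numbered 28106243 to 34146918 in the CREBH-KO libraries and 31679996 to 39288819 in the WT libraries. Levels are normalised read counts (CPM, the share of a library's counts after scaling by edgeR's TMM factors). Genes passed the test when the p of edgeR's quasi-likelihood test, adjusted by Benjamini-Hochberg over 15589 genes, was under 0.05. Creb3l3 itself fell to 49.6 ± 6.79 CPM in CREBH-KO, against 486 ± 16.6 CPM in WT (SD, n = 3 each). Of 7 matched hepatocyte markers, 1 (Apob, lower) passed the test, and the list summed to 74330 to 81500 CPM in CREBH-KO and 66720 to 79780 CPM in WT. In whole liver, fewer cells of a type and less RNA per cell cannot be told apart. For CREBH-KO 2 and CREBH-KO 3 the labels report that 1 of the read files was lost. The labels call the samples independent without tying each to its own mouse. The p-values therefore set the difference between genotypes against the spread between these samples.

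Of the 9 repressor genes, 8 fell in CREBH-KO, none rose, and Per1 did not pass. Over all tested genes, 10.4% were called, with 6.46% lower and 3.91% higher in CREBH-KO. The median log2 fold change (CREBH-KO minus WT) was -1.33 over the 9 genes and 0.02 over all tested genes. For the 8 genes that fell, each CREBH-KO library lay below each WT library, a separation seen in 30.6% of tested genes in either direction and in 15.7% in this one. The falls ran from 1.44-fold for Nr1d2 to 14.8-fold for Ciart. Without the CREBH-KO libraries whose labels report a lost file, CREBH-KO 1 alone against WT gave lower values for all 9 genes, but Bhlhe41 alone passed (log2 fold change -3.81).

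**Figure D1:**
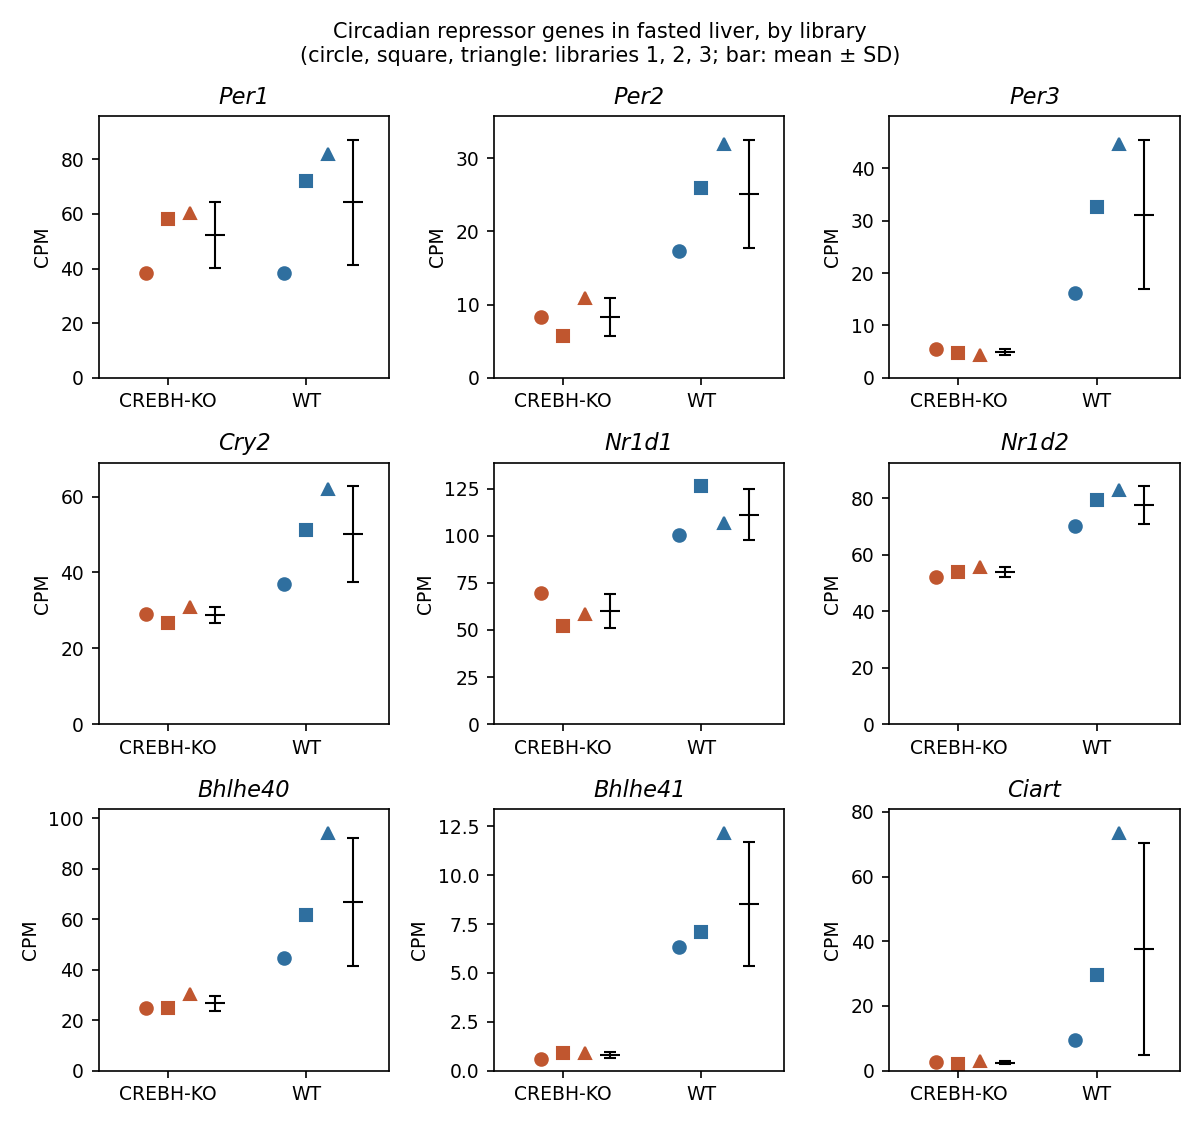
CPM (y axis, from 0, its own scale per gene) of the 9 repressor genes in the 3 CREBH-KO and 3 WT libraries, with the mean ± SD of each genotype beside the points. The genotypes are separate for 8 genes and overlap for Per1, whose lowest libraries are CREBH-KO 1 at 38.2 CPM and WT 1 at 38.5 CPM.

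Promoters of these genes are known for E-boxes and for D-boxes, which the DBP family binds. RefSeq windows (GRCm38.p6) were matched by symbol for 7 of the 9 genes, those of Per2 and Bhlhe40 excepted. The 250 bases before each start site were searched on both strands for the E-box CACGTG, its variant CACGTT, which reads AACGTG from the opposite strand, and the D-box TTATGTAA. Each match was counted even if it overlapped another. Shown are the promoters of Ciart, Bhlhe41 and Per3, the genes with the largest falls, of Nr1d1, the most abundant of the 9, and the distal of 2 windows of Per1, the gene that did not pass. Bases within the gene's own annotated exons were left off the 3′ end, and capitals mark E-boxes, the E-box variant and D-boxes.
Ciart (chr3:95882252-95882478, minus strand): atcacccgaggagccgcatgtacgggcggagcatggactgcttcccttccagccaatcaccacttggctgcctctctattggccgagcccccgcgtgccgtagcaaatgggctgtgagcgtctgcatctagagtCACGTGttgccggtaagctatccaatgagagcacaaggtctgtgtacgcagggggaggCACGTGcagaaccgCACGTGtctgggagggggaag
Bhlhe41 (chr6:145865559-145865670, minus strand): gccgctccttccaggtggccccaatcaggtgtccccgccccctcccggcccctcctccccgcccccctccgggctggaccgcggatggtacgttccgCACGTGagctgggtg
Per3 (chr4:151044666-151044915, minus strand): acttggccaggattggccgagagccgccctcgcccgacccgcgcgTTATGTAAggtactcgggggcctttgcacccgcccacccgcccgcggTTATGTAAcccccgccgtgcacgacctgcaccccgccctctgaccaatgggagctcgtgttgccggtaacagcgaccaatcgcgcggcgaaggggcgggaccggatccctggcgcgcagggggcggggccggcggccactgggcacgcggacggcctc
Nr1d1 (chr11:98775378-98775627, minus strand): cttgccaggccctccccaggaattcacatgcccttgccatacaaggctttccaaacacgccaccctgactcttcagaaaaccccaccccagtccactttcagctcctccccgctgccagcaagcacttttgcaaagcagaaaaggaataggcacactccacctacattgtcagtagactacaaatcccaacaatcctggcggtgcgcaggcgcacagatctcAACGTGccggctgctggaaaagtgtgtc
Per1 (chr11:69098699-69098947, plus strand): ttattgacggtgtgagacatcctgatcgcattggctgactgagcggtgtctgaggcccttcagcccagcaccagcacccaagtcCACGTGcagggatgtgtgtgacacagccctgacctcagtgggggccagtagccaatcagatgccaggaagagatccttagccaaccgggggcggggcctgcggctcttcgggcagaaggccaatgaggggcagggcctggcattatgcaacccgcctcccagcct

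The Ciart window held 3 E-boxes, 116, 58 and 44 bases before the start site, where 6.02% of 32851 windows of this length held at least 1 and 0.061% held at least 3. Bhlhe41 and Per1 each held 1 E-box, 153 and 166 bases before their start sites. Start sites here are those of RefSeq and can differ from the ends of the GENCODE M21 gene spans printed below. Of the 250 bases of the Bhlhe41 window, 138 lie within the gene's own GENCODE exons, and both Per1 windows lie inside the Per1 span. Nr1d1 and Cry2 each held the variant, found in 3.85% of windows. Per3 held 2 D-boxes, 205 and 158 bases before its start, where 0.819% of windows held at least 1 and 0.0183% at least 2. The second Per1 window and that of Nr1d2 held none of these motifs. A half-site of the cAMP response element, TGACG, the letters CREB-type factors recognise, was in both Per1 windows and in that of Cry2, and in 17.8% of all windows. These matches describe letters in a window, not binding.

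Among the period genes, whose proteins form the core of the repressor complex, Per2 and Per3 fell and Per1 did not pass. Per3 (ENSMUSG00000028957, chr4:151003652-151044665, minus strand), the period gene that mouse rhythms need least, had 5.50, 4.83 and 4.32 CPM in CREBH-KO 1, 2 and 3, against 16.2, 32.6 and 44.6 CPM in WT 1, 2 and 3. All CREBH-KO values were low and close together, and the lowest WT value, in WT 1, was well above them. The log2 fold change was -2.67 ± 0.32 (SE, n = 3 each, edgeR adjusted p = 0.00154), or 6.36-fold lower.

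Per2 (ENSMUSG00000055866, chr1:91415982-91459324, minus strand), which with Per1 is needed for rhythms in mice, had 8.28, 5.78 and 10.9 CPM in the CREBH-KO libraries, against 17.3, 25.9 and 32.0 CPM in the WT libraries. The groups did not overlap, with CREBH-KO 3 the highest of its genotype and WT 1 the lowest of its own. Per2 changed by -1.59 ± 0.26 on the log2 scale (edgeR adjusted p = 0.00632), or 3.00-fold lower. Per1 (ENSMUSG00000020893, chr11:69095217-69109960, plus strand), the period gene that cAMP and glucocorticoid signals switch on quickly, had 38.2, 58.0 and 60.2 CPM in the CREBH-KO libraries and 38.5, 72.2 and 82.0 CPM in the WT libraries. Its groups overlapped, because WT 1 was as low as CREBH-KO 1. The log2 difference of Per1 was -0.30 ± 0.26 (95% interval -0.89 to 0.29, edgeR adjusted p = 0.520). It was -0.58 without WT 1 (adjusted p = 0.0710) and -0.09 without WT 3 (adjusted p = 0.891).

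The ratio of Per1 to Per2, each per length, was taken within each library. On the log2 scale it was 2.26, 3.38 and 2.52 in CREBH-KO 1, 2 and 3, and 1.21, 1.53 and 1.41 in WT 1, 2 and 3. Per1 was above Per2 throughout, and the lowest CREBH-KO ratio exceeded the highest WT ratio.

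Cry2 (ENSMUSG00000068742, chr2:92403646-92434043, minus strand) encodes a cryptochrome, the partner with which PER proteins block CLOCK and BMAL1. It had 29.1, 26.6 and 30.8 CPM in the CREBH-KO libraries, against 37.0, 51.1 and 62.1 CPM in the WT libraries. The groups did not overlap, and WT 1 lay nearest to CREBH-KO. Cry2 fell 1.73-fold (log2 fold change -0.79 ± 0.17, edgeR adjusted p = 0.0182), a call that was lost without CREBH-KO 2, without CREBH-KO 3 or without WT 2 (adjusted p of 0.0768, 0.0517 and 0.0659). Its paralog Cry1, outside the 9 genes, had 7.14 ± 1.06 CPM in CREBH-KO and 6.36 ± 0.23 CPM in WT and did not pass (log2 fold change 0.17 ± 0.16, adjusted p = 0.544). The per-length log2 ratio of Cry1 to Cry2 was -1.17, -1.16 and -0.97 in the CREBH-KO libraries and -1.65, -2.12 and -2.31 in the WT libraries, without overlap.

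The REV-ERB genes, which encode haem-binding receptors that repress Arntl and many lipid genes in liver, both fell by less than 2-fold. Nr1d1 (REV-ERB alpha, ENSMUSG00000020889, chr11:98767932-98775333, minus strand) had 69.8, 52.1 and 58.4 CPM in the CREBH-KO libraries, against 100.5, 126 and 107 CPM in the WT libraries. The gap between the highest CREBH-KO and the lowest WT library was wider than the range within CREBH-KO. Nr1d1 fell 1.85-fold (log2 fold change -0.89 ± 0.13, edgeR adjusted p = 0.00318). Of its exonic bases, 8.55% lie within Thra, the thyroid hormone receptor gene on the opposite strand, which had 24.0 ± 1.23 CPM in CREBH-KO and 23.0 ± 2.10 CPM in WT.

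Nr1d2 (REV-ERB beta, ENSMUSG00000021775, chr14:18204054-18239127, minus strand), the partly redundant relative of Nr1d1, had 52.3, 53.8 and 55.9 CPM in the CREBH-KO libraries, against 70.2, 79.4 and 83.2 CPM in the WT libraries. It was the least variable of the 9 genes in both genotypes, and its groups stood apart. Its fall was 1.44-fold (log2 fold change -0.52 ± 0.09, edgeR adjusted p = 0.00628). The log2 ratio of Nr1d1 to Nr1d2 per length was 1.23, 0.77 and 0.88 in the CREBH-KO libraries and 1.33, 1.48 and 1.18 in the WT libraries, and these ranges overlapped.

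Bhlhe41 (DEC2, ENSMUSG00000030256, chr6:145858243-145865558, minus strand), a basic helix-loop-helix repressor, had the smallest p of the 9 genes. It had 0.615, 0.879 and 0.918 CPM in the CREBH-KO libraries, which rest on 21, 26 and 30 reads, against 6.34, 7.10 and 12.2 CPM in the WT libraries. Every WT value was several times the highest CREBH-KO value. The log2 fold change was -3.40 ± 0.31 (edgeR adjusted p = 4.36e-04), or 10.6-fold lower. An antisense gene, Gm43909, covers 19.1% of its exonic bases and had 3 reads over the CREBH-KO libraries and 11 over the WT libraries.

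Bhlhe40 (DEC1, ENSMUSG00000030103, chr6:108660629-108666925, plus strand), the relative of Bhlhe41 that hypoxia also induces, had 24.8, 24.8 and 30.2 CPM in the CREBH-KO libraries, against 44.4, 61.7 and 94.1 CPM in the WT libraries. The CREBH-KO libraries were close together and the WT libraries spread more than 2-fold. Bhlhe40 fell 2.51-fold (log2 fold change -1.33 ± 0.23, edgeR adjusted p = 0.00847). Within libraries, the per-length log2 ratio of Bhlhe40 to Bhlhe41 was 5.85, 5.33 and 5.55 in the CREBH-KO libraries and 3.32, 3.63 and 3.47 in the WT libraries, without overlap.

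Ciart (ENSMUSG00000038550, chr3:95878503-95882251, minus strand), whose product binds BMAL1 and represses its targets, had the steepest fall of the 9 genes, number 13 among the 1007 falls ordered by log2 fold change. It had 2.72, 2.00 and 2.85 CPM in the CREBH-KO libraries, against 9.44, 29.6 and 73.5 CPM in the WT libraries. The WT libraries differed among themselves by 7.79-fold, the widest range of the 9 genes, while the CREBH-KO libraries differed by 1.43-fold. The fall was 14.8-fold (log2 fold change -3.89 ± 0.65, edgeR adjusted p = 0.00696). Its size rests partly on WT 3, without which the log2 fold change was -2.95, and Ciart did not pass by limma-voom (adjusted p = 0.0826) or with robust edgeR dispersions (adjusted p = 0.0690).

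**Figure D2:**
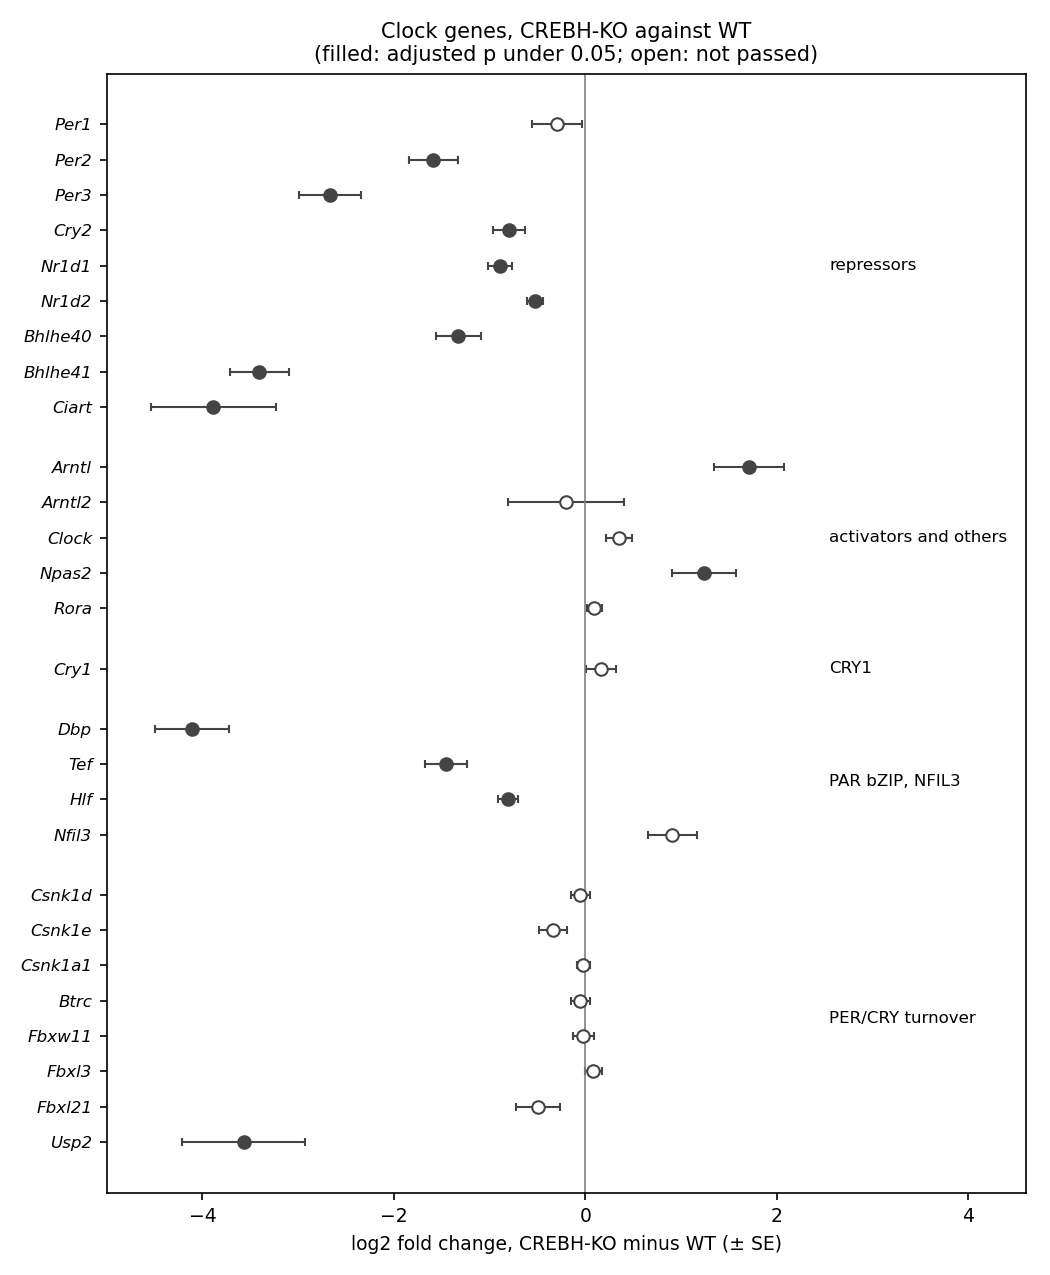
Log2 fold change (x axis, CREBH-KO minus WT, bars ± SE) of the 9 repressor genes and 18 other tested clock genes (y axis), grouped by role. Filled points passed at an adjusted p under 0.05; repressors and DBP-family genes lie left of 0, from -0.30 for Per1 to -4.11 for Dbp, and Arntl and Npas2 lie to the right.

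The order of the 9 genes by level per length (RPKM, over the joined exons of GENCODE M21) also differed. In CREBH-KO it ran Nr1d1 (19.5 ± 2.92 RPKM, SD), Nr1d2 (9.98 ± 0.335), Per1 (9.26 ± 2.15), Bhlhe40 (5.65 ± 0.657), Cry2 (4.57 ± 0.335), Per2 (1.42 ± 0.437), Ciart (1.12 ± 0.203), Per3 (0.508 ± 0.062) and Bhlhe41 (0.120 ± 0.025). Nr1d2 and Per1, and Per2 and Ciart, overlapped there, while all other neighbours were separate. In WT the order ran Nr1d1 (36.1 ± 4.33 RPKM), Ciart (16.6 ± 14.5), Nr1d2 (14.4 ± 1.23), Bhlhe40 (14.2 ± 5.36), Per1 (11.4 ± 4.05), Cry2 (7.92 ± 1.99), Per2 (4.28 ± 1.26), Per3 (3.24 ± 1.48) and Bhlhe41 (1.27 ± 0.471). From Ciart to Cry2, and from Per2 to Bhlhe41, each WT gene overlapped its neighbour. Ciart stood at place 7 in CREBH-KO, against place 2 in WT, but its WT place rests on WT 3. Without that library, left out here after the values were seen, Ciart averaged 8.64 RPKM in WT and stood at place 5. In WT 1, at 4.17 RPKM, it was also below Cry2 at 5.86 RPKM.

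The spread among WT libraries was wide for most of these genes. Within a genotype, the SD of log2 CPM had a median over the 9 genes of 0.21 in CREBH-KO and 0.50 in WT, beside 0.17 and 0.19 over all tested genes. In WT, 7 of the 9 genes lay above that median of all tested genes, and Nr1d1 (0.17) and Nr1d2 (0.13) lay below it. In WT, 8 of the 9 genes were lowest in WT 1 and highest in WT 3, a pattern that 20.8% of tested genes shared, and Nr1d1 was lowest in WT 1 and highest in WT 2. No such shared order held in CREBH-KO, where the commonest pattern, lowest in CREBH-KO 2 and highest in CREBH-KO 3, covered 4 of the 9 genes, beside 16% of tested genes. Leaving out WT 1, the WT library nearest to CREBH-KO, kept 8 calls. Leaving out WT 3 kept 8 calls as well.

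**Figure D3:**
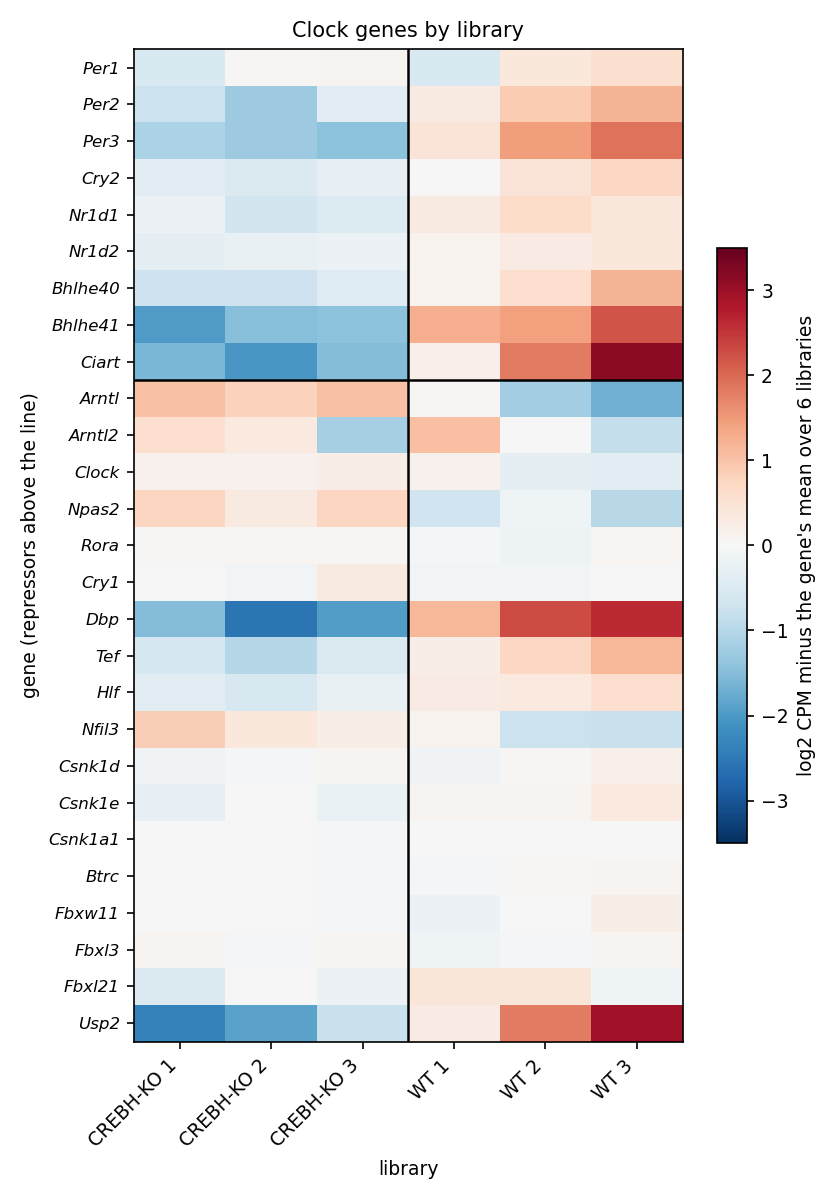
Heat map of log2 CPM minus each gene's mean over the 6 libraries (colour), for the 9 repressor genes above the horizontal line and 18 other clock genes below it, in the CREBH-KO libraries left and the WT libraries right of the vertical line. In WT 1 most repressors are paler than in WT 3, and Arntl is at its lowest in WT 3.

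Beyond the repressors, 25 of 26 listed clock genes were tested, and 6 fell and 2 rose. Their median log2 fold change was -0.05. Among the activators, Arntl (BMAL1) rose. It had 13.5, 11.6 and 13.5 CPM in the CREBH-KO libraries, against 6.83, 2.82 and 2.02 CPM in the WT libraries, with no overlap (log2 fold change 1.71 ± 0.37, edgeR adjusted p = 0.0206). The call was lost with robust edgeR dispersions (adjusted p = 0.0562) and without CREBH-KO 2, without CREBH-KO 3 or without WT 2 (adjusted p of 0.0540, 0.0658 and 0.0859). The size depended on WT 1, without which the log2 fold change of Arntl was 2.40. Npas2, the stand-in for CLOCK, rose to 1.69 ± 0.291 CPM in CREBH-KO, against 0.712 ± 0.232 CPM in WT (1.24 ± 0.33, adjusted p = 0.0464), and lost its call without any 1 of the 6 libraries (adjusted p of 0.0590 to 0.141). Clock had a log2 difference of 0.36 ± 0.14 and did not pass (adjusted p = 0.141).

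All 3 tested PAR bZIP factors, which read out the clock through D-boxes, fell. Dbp, a direct E-box target like Ciart, had 8.08, 3.92 and 5.97 CPM in the CREBH-KO libraries, against 52.2, 115 and 144 CPM in the WT libraries (log2 fold change -4.11 ± 0.39, edgeR adjusted p = 4.74e-04). Of the exonic bases of Dbp, 18.0% lie within the antisense gene Sphk2. Tef fell by 1.45 and Hlf by 0.80 on the log2 scale (adjusted p = 0.00441 and 0.00244). Nfil3, the repressor that opposes them, had a log2 difference of 0.91 ± 0.25 and did not pass (adjusted p = 0.0528). Of 8 genes of PER and CRY turnover, Usp2, a deubiquitinase with its own strong rhythm, fell (-3.57 ± 0.64, adjusted p = 0.00961), and the casein kinase and F-box genes did not pass. Its call was lost without CREBH-KO 2 (adjusted p = 0.0506) and with robust dispersions (adjusted p = 0.0834). The log2 fold change of Usp2 was -2.75 without WT 3 and -4.18 without CREBH-KO 3.

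Within each library, levels of the repressors were set against Arntl, since REV-ERB proteins silence it. The log2 ratio of Nr1d1 to Arntl per length was 3.66, 3.45 and 3.40 in the CREBH-KO libraries and 5.17, 6.78 and 7.02 in the WT libraries. That of Per2 to Arntl was -0.34, -0.65 and 0.05 in the CREBH-KO libraries and 1.70, 3.57 and 4.35 in the WT libraries. Neither ratio overlapped between genotypes, and in WT 1 each was the lowest of the WT libraries. Both points follow from the levels of the single genes given above and are no separate result.

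**Figure D4:**
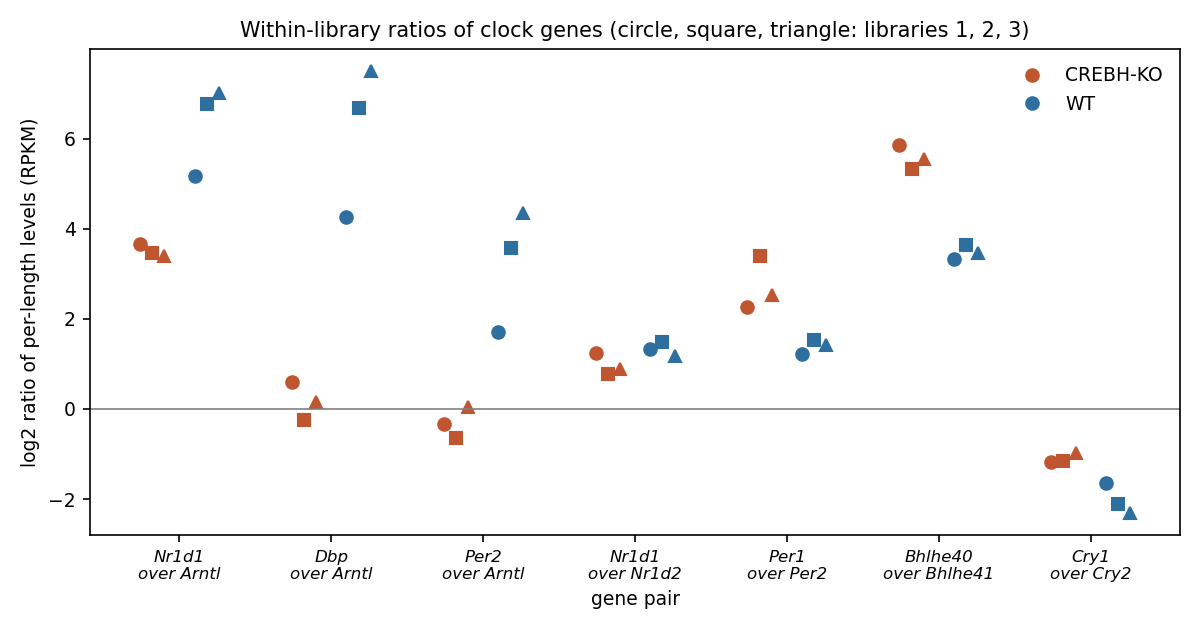
Log2 ratio of per-length levels (y axis) for 7 pairs of clock genes (x axis), 1 point per library, CREBH-KO left of WT in each pair. The groups are separate for each pair except Nr1d1 over Nr1d2, and the mean log2 ratio of Nr1d1 to Arntl is 3.51 in CREBH-KO and 6.32 in WT. For the pairs over Arntl, the separation follows from the separate groups of the single genes.

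Genes whose level followed a repressor most closely were sought among 12556 other genes of at least 1 CPM, by Euclidean distance between centred log2 CPM over the 6 libraries, where 0 means the same profile. Nearest to Ciart were Usp2 (distance 1.13) and Dbp (1.38). Nearest to Per2 were Gm8941 (0.366) and Tef (0.368), and nearest to Bhlhe40 were Tef (0.353) and Ppara (0.442), the nuclear receptor of the fasting response. The desaturase gene Fads2 (0.819) and the lysolipid transporter gene Mfsd2a (0.830) came nearest to Bhlhe41, and Cntnap1 (0.637) and the lipid droplet gene Cidec (0.753) to Per3. For Nr1d1 they were Ces2e (0.145) and Srd5a1 (0.201), for Nr1d2 the mitochondrial carrier gene Slc25a13 (0.0456) and 4833420G17Rik (0.0938), and for Cry2 Slc9a3r1 (0.148) and Zfp526 (0.169). The profiles cover 6 libraries in 2 genotypes, and the distances are a description.

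Markers of other liver cells were read beside these falls. None of 8 macrophage markers passed (list sum 61.8 to 77.5 CPM in CREBH-KO and 57.4 to 118 CPM in WT), nor any of 8 endothelial markers (174 to 177 CPM in CREBH-KO and 153 to 202 CPM in WT). Of 8 stellate cell markers, Rgs5 and Acta2 rose, and the list summed to 104.9 to 113 CPM in CREBH-KO and 72.6 to 93.5 CPM in WT. Of 6 tested genes on the lymphocyte list, Ptprc rose and 5 did not pass. The list summed to 8.54 to 10.7 CPM in CREBH-KO and 3.28 to 8.19 CPM in WT. Ptprc alone gave 5.2, 6.6 and 5.1 CPM of it in CREBH-KO 1, 2 and 3, and 1.9, 2.3 and 3.3 CPM in WT 1, 2 and 3. Of 5 tested cholangiocyte markers, Sox9 rose and 4 did not pass (list sum 41.9 to 69.6 CPM in CREBH-KO and 35.9 to 79.1 CPM in WT). The log2 fold changes of those 4 were -1.11 (Epcam), -0.35 (Krt19), -0.09 (Spp1) and 0.04 (Krt7). No listed marker was at 0 in all libraries. The part of these cells in the falls of the clock genes was not tested.

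The fold changes were refitted with other scalings, filters and tests, with each library left out, and with CREBH-KO 1 alone. Over these 15 alternatives Nr1d2 ranged from -0.60 to -0.45 on the log2 scale and Bhlhe41 from -3.81 to -3.06. Bhlhe41 passed in all 15.

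**Figure D5:**
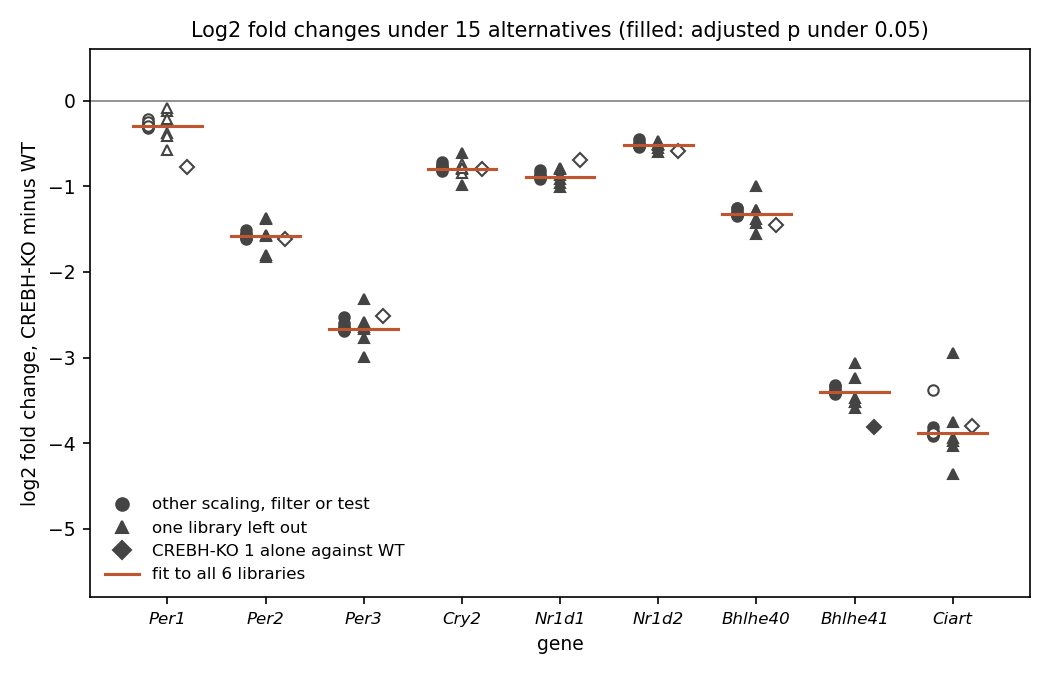
Log2 fold change (y axis, CREBH-KO minus WT) of each repressor gene (x axis) in the fit to all 6 libraries (line) and under 15 alternatives (symbols by kind, filled where the adjusted p was under 0.05). Every value lies below 0, and the widest range is that of Ciart, from -4.36 to -2.95.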

How the data were processed

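The 6 liver libraries were paired-end and shared 1 sequencing lane, per the labels' protocols. The authors deposited raw read counts per gene; sample titles name HTSeq. For the aligner, the build and the strand option, the sources used here give nothing. All 55536 identifiers matched GENCODE M21 (GRCm38), which gave symbols, positions and exon lengths. Reads given to no gene (27.4% to 31.2% per library) were left out. Without a known strand setting, antisense partners cannot be told apart.

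Counts were tested in R 4.3.3 with edgeR 4.0.16 (filterByExpr, minimum count 10; TMM factors 0.967 to 1.05; quasi-likelihood test, CREBH-KO minus WT, no covariate, two-sided), which kept 15589 genes. The SE is the size of the log2 fold change over the root of the test's F. DESeq2 1.42.0, limma 3.58.1 (voom), other scalings and filters, and left-out libraries were alternatives. The code was tested on simulated data. Replicates of a genotype differed beyond sampling noise in each pair (lowest chi-square per degree of freedom 16.9).

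The 9 genes, the gene lists and the tests were chosen with earlier results of these data known. Named were all 9 genes, every other clock gene that passed apart from some that are not reported here, up to 4 genes of each further list by p, and the 2 nearest profiles of each repressor called; clock genes that did not pass, Cirbp and the cell type markers were named after their values were seen. Promoters came from RefSeq.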

Additional observations from a re-analysis of the deposited data

How the results depend on the processing

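The 8 falls kept their direction under the other scalings, filters, tests and left-out libraries tried, and no repressor gene changed sign. With 1 library left out, 7 to 8 of the 9 genes passed, 658 to 1806 genes passed genome-wide (658 without WT 2, 778 without CREBH-KO 3, 838 without CREBH-KO 2; 1616 with all 6), and 4 to 9 of the other clock genes passed (4 without CREBH-KO 2, 5 without CREBH-KO 3 or WT 2; 8 with all 6). The repressor lost was Cry2 each time. CREBH-KO 1 alone against WT, where that library is assumed to vary as the WT libraries do, gave 228 genes genome-wide, 1 repressor (Bhlhe41) and 1 other clock gene. With no filter on low counts 2456 genes passed. The cause of these differences was not tested. Limma-voom and edgeR's robust fit each kept 7 repressors, without Ciart, and an adjusted p under 0.01 kept 7, without Cry2. Higher genes made up 37.7% of calls with TMM scaling and 52.8% with library size alone, which moved the median of all genes by 0.07 on the log2 scale. No repressor had over 20% of its exonic bases within other genes. Depth limits Bhlhe41 most, at 21 reads in CREBH-KO 1. No paired analysis was possible because the labels number no replicates: the numbers used here follow the order of the samples, only name the libraries, and tie none of CREBH-KO to one of WT.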

Other observations

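Other lists of rhythmic or clock-setting genes, chosen with earlier results of these data known, were read in the same test. Of 14 genes with known daily rhythms in liver, 9 fell and 2 rose, where 6.46% of all tested genes fell and 3.91% rose. The falls include Usp2, already counted among the other clock genes. Cdkn1a, the p21 cell cycle inhibitor that REV-ERB alpha represses, had 30.1, 63.6 and 47.1 CPM in CREBH-KO 1, 2 and 3, against 8.61, 7.70 and 6.99 CPM in WT 1, 2 and 3 (log2 fold change 2.59 ± 0.24, SE, edgeR adjusted p = 4.66e-04). Alas1, the rate-limiting enzyme of haem synthesis, fell to 255 ± 66.1 CPM in CREBH-KO, against 710 ± 107 CPM in WT (SD, n = 3 each, edgeR adjusted p = 0.00168). Gys2, the liver glycogen synthase, fell 2.00-fold (adjusted p = 0.00703), and Usp2, described above, is the fourth by p.

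Among 8 temperature-responsive genes, 4 rose and none fell. They were Hsp90aa1 (log2 fold change 0.87 ± 0.16, edgeR adjusted p = 0.0105), Hsph1 (1.08 ± 0.28, adjusted p = 0.040) and Hspa8 (0.43 ± 0.11, adjusted p = 0.0435). The last was Hspa1a (2.13 ± 0.51, adjusted p = 0.032), uncertain because of its near-identical copy Hspa1b. In CREBH-KO 1, Hsph1 (35.5 CPM) and Hspa1a (0.82 CPM) lay little above the highest WT library, WT 2 (35.1 and 0.63 CPM). The rises of these genes rest on CREBH-KO 2 and CREBH-KO 3, whose labels report a lost file. There Hsph1 had 71.4 and 89.6 CPM, and Hspa1a 2.57 and 3.24 CPM. The cold-inducible Cirbp had 47.6 ± 10.9 CPM in CREBH-KO and 51.3 ± 4.68 CPM in WT and did not pass (adjusted p = 0.715). Of 9 glucocorticoid-induced genes, the phosphatase gene Dusp1 (1.33 ± 0.23) and the kinase gene Sgk1 (0.82 ± 0.16) rose and Mt2, a metallothionein, fell (-1.33 ± 0.35), although 73.5% of the exonic bases of Mt2 lie within the antisense gene Gm45774. Of 10 tested genes induced by cAMP, Pck1, a gluconeogenic enzyme gene, fell (-0.64 ± 0.15, adjusted p = 0.0322) and 9 did not pass. The median log2 fold change of these 10 genes was 0.36, in the direction opposite to Pck1. Per1, known as a target of both signals, is described above.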
